A study of Drosophila melanogaster with 24 samples.

Results

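The comparison described here is that of the male with the female proboscis of adult Drosophila melanogaster. It covers 8 of the 24 samples, 4 from females and 4 from males, chosen by the tissue and sex in the sample titles. The other 16 samples are antennae and first legs of both sexes, 4 in each group, and they enter the model below to help estimate the dye effects and the spread, and to set the proboscis beside the other organs. All tissues were dissected 1 to 2 hours after the adults emerged. The submitters' design text names the isogenic line WI89 for the whole series, while the sample descriptions give RIL 58 or RIL 89. In the proboscis, female replicates 1 and 2 and male replicates 1 and 4 are RIL 58, and female replicates 3 and 4 and male replicates 2 and 3 are RIL 89. No group carries a transgene, mutation or treatment in the labels. The labels do not say how many flies gave each sample or whether replicates came from separate collections, and the p-values then reflect the spread between the samples of the series, part or all of which may be technical.

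The proboscis is the fly's feeding organ. Its tip, the labellum, bears taste bristles whose neurons detect sugars, bitter compounds, water and salts, and males also touch females with it during courtship. Sex in Drosophila somatic cells is set by a splicing cascade that runs from Sex-lethal through transformer to the transcription factors doublesex and fruitless, and males raise transcription from their X chromosome through the roX RNAs and the MSL proteins. Front legs and antennae, the other organs of the series, carry taste and smell receptors used in the same behaviours. None of these genes could be looked up, because the gene column of the deposited files holds 0 entries. The results are therefore given for spots of the array, by their number and grid position, and the labelled tissue could not be checked against its marker genes.

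Each sample is 1 dye channel of a microarray of 22575 spots, in 105 rows and 215 columns. The quality column of the files was identical for 12 pairs of samples, each a Cy3 and a Cy5 sample, and these pairs were taken as shared arrays. Female replicate 2 (Cy3) and male replicate 1 (Cy5) share an array, the only one that holds both sexes of the proboscis. Every other proboscis sample shares its array with an antenna or first leg sample. The correlation of an array's channels had its widest gap between 8 arrays with correlations from 0.628 to 0.737 and 4 arrays with correlations from 0.855 to 0.969, and the array sets were split there. In the 8-array set both female proboscis samples are Cy5 (replicates 1 and 4) and both male samples are Cy3 (replicates 3 and 4). In the 4-array set the dyes are the other way round, with females 2 and 3 in Cy3 and males 1 and 2 in Cy5. Within either set, sex and dye in the proboscis cannot be told apart. Within either dye, sex and array set in the proboscis cannot be told apart. Over both sets, sex in the proboscis coincides with the combination of dye and set. A dye effect that differs between the sets can be told apart from sex only through the antenna and first leg samples. In the 4-array set those are antenna females 1, 3 and 4 and first leg female 3, with no male among them.

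The dyes also differed in brightness. Median net signal, the spot mean minus the background mean, was 102 to 148 in the Cy3 proboscis samples and 23.2 to 62.9 in the Cy5 ones. Net signal lay under the sample's own background at 87.8% and 88.1% of spots in females 1 and 4, and at 57.6% and 49.7% in males 1 and 2. In the Cy3 samples that share was at most 0.633%. Most spots of the Cy5 samples were thus measured close to background, and the number of arrays limits the precision of every value.

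Male replicates 3 and 4 stood apart from the other 6 proboscis samples. After normalisation their correlation with those samples over all spots ran from 0.62 to 0.75, while the other 6 correlated with each other at 0.888 to 0.969, across the sexes, and the 2 males with each other at 0.963. These 2 samples are the only Cy3 proboscis samples of the 8-array set. The calls below made with a dye effect for each array set are therefore also given without them.

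**Figure D1:**
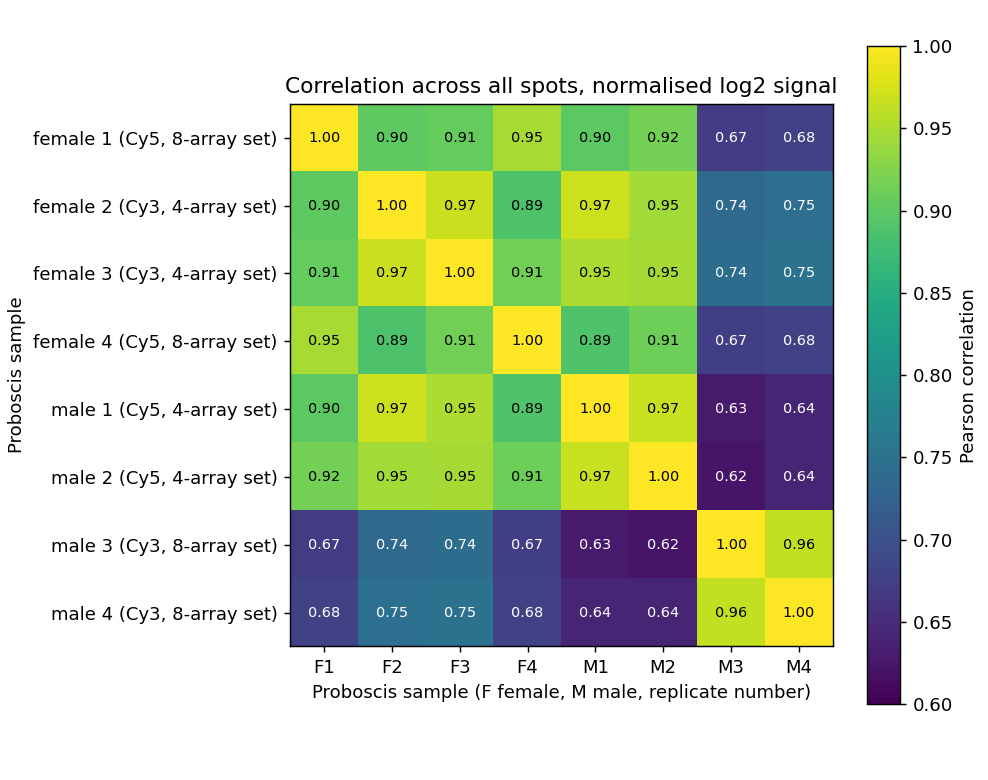
Pearson correlation between the 8 proboscis samples over all spots of normalised log2 signal. Both axes list the samples and the colour scale gives the correlation from 0.60 to 1.00. Males 3 and 4 lie at 0.62 to 0.75 with the other 6 samples and at 0.96 with each other, and the remaining males and females lie at 0.89 to 0.97 regardless of sex.

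A group of 471 spots separated these channels. The spots lie in 15 of the 105 rows in a regular spacing, with 238 of the 456 gaps within rows equal to 7 columns, and are called lattice spots here. They were picked, after the data were seen, by the fitted dye effect of the 8-array set, below the widest gap in its values, from -2.26 to -0.98 on the log2 scale. Their median normalised level was 9.36 to 9.67 in the 8 Cy3 samples of the 8-array set and 6.03 to 7.06 in the other 16 samples of the series. In net signal the medians were 953 to 2108 against 11.8 to 245. In the proboscis the lattice median was 9.59 in male 3 and 9.57 in male 4, 7.04 and 6.89 in females 2 and 3, and 6.09 to 6.13 in the 4 Cy5 samples. With these spots left out before normalisation, males 3 and 4 correlated with the other proboscis samples at 0.819 to 0.915, and those others with each other at 0.893 to 0.977. The channel correlations then ran from 0.848 to 0.950 in the 8-array set and from 0.864 to 0.977 in the 4-array set, so that the ranges of the sets overlapped. The files do not say what these spots hold.

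The question of the comparison was which spots differ between the male and the female proboscis. The limma model had a mean for each of the 6 groups, an array set effect, a dye effect for each set and a RIL effect. The model had the array as a random block and was fitted to all 24 samples. At a Benjamini-Hochberg adjusted p under 0.05 it called 3 of the 22575 spots, 0.0133%. All 3 were lower in males, with fitted differences of 0.89 or more in size on the log2 scale, and 0 spots were called higher in males. At an unadjusted p under 0.05 there were 723 spots (3.2%), 326 higher (1.44%) and 397 lower (1.76%) in males. Differences are given as male minus female throughout. Over all spots 95% of them lay between -0.26 and 0.24, and 8 spots lay beyond 1 in either direction. Of the 10 spots with the smallest p, 8 were lower in males.

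Spot 5784, in row 27 and column 194, had the smallest p. Its normalised log2 level was 7.41, 6.97, 6.82 and 7.31 in females 1 to 4 and 6.44, 6.49, 6.01 and 5.96 in males 1 to 4. All 4 males lay below all 4 females, and the 2 lowest values were those of males 3 and 4. In net signal, before normalisation, the females read 84.4, 234, 199 and 77.6 and the males 69.7, 91.4, 88.3 and 89.1, and there the groups overlapped. The fitted difference was -0.96 ± 0.11 (SE, 4 samples per group), with an adjusted p of 0.00323 in limma. The male net signals lay not far above their backgrounds of 52.9 to 62.1, and the size moved with the background step, to -1.46 with a normexp offset of 16 and -0.67 with no background correction, with spot 5784 called in both. Between samples of the same dye, where the sexes came from different array sets, the difference was -0.91 in Cy3 and -0.90 in Cy5. Within RIL 58 it was -0.99 and within RIL 89 it was -0.82. On the array that held both sexes the male channel differed from the female by -0.53. The 8 spots around it on the grid differed by -0.05 to 0.14. The SD of its normalised levels was 0.28 in either sex. SDs of adjusted levels leave out the spread that the fitted effects took up. Adjusted for dye, array set and RIL, its level was 7.17 ± 0.14 (SD, n = 4) in the female proboscis. In the male proboscis it was 6.19 ± 0.16. In the other organs it was 5.98 and 5.80 in female and male antennae and 5.85 in the first legs of either sex, so that the female proboscis had the highest level of the 6 groups.

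Spot 2572, in row 12 and column 207, was brighter. Its normalised log2 level was 8.80, 8.35, 8.92 and 9.15 in females 1 to 4 and 7.84, 7.47, 7.65 and 7.69 in males 1 to 4. The groups did not overlap, and the 4 males lay close together. In net signal the females read 272, 459, 612 and 387 and the males 288, 317, 190 and 224, so that the groups overlapped before normalisation. The fitted difference was -1.03 ± 0.15, a 2.04-fold higher level in females, with an adjusted p of 0.0362 in limma. The difference was -0.96 within Cy3 samples, -1.32 within Cy5 samples and -0.51 on the shared array. Both sexes of the proboscis lay above the other organs, with adjusted levels of 8.81 ± 0.27 and 7.71 ± 0.16 (SD, n = 4) in females and males against 5.94 to 6.39 in antennae and first legs. The normalised proboscis levels had SDs of 0.34 in females and 0.15 in males.

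The third called spot had normalised log2 levels of 9.12, 8.65, 8.89 and 9.16 in females 1 to 4 and 7.91, 8.20, 7.77 and 7.62 in males 1 to 4. Here too all males lay below all females. In net signal the females read 333, 528, 604 and 389 and the males 299, 529, 206 and 210, so that the groups overlapped before normalisation. The fitted difference was -0.89 ± 0.14, and limma gave an adjusted p of 0.0372. It was -1.08 within either dye and -0.74 on the shared array. The normalised proboscis levels had SDs of 0.24 in females and 0.25 in males. The spot's adjusted level was 8.86 ± 0.08 (SD, n = 4) in the female proboscis and 7.95 ± 0.11 in the male. It was 7.84 and 7.85 in female and male antennae and 6.92 and 6.82 in female and male first legs. The male proboscis thus lay near both antenna groups and the female proboscis above all other groups.

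**Figure D2:**
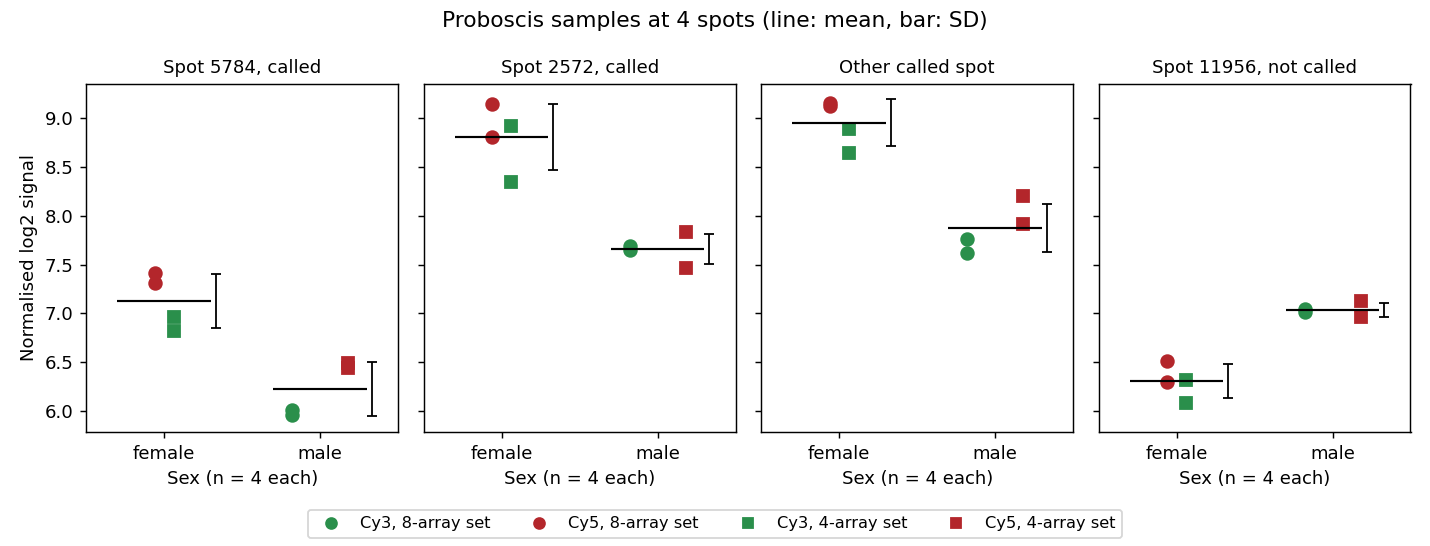
Normalised log2 signal (vertical axis) of each proboscis sample at the 3 spots called lower in males and at spot 11956, by sex, with 4 samples per sex. Circles are samples of the 8-array set and squares of the 4-array set, green is Cy3 and red Cy5, lines are group means and bars SDs. In each panel the males and females do not overlap, whichever dye or set a sample has.

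Each of the 3 called spots had a spot elsewhere on the grid with a closely similar pattern over the 24 samples, by Pearson correlation of normalised levels. For spot 5784 the most similar spot had r = 0.953 and rank 4 by p, with a difference of -0.98 ± 0.17 and an adjusted p of 0.0974. Its females ran from 6.45 to 7.71 and its males from 6.21 to 6.85, so that they overlapped. For spot 2572 the most similar spot had r = 0.992, a difference of -0.92 ± 0.18 and an adjusted p of 0.208. Its 4 females (8.69 to 9.56) lay above its 4 males (7.83 to 8.20). For the third spot it had r = 0.988, a difference of -0.81 ± 0.14 and an adjusted p of 0.107. There the females (8.66 to 9.17) were again apart from the males (7.70 to 7.99). These pairs account for 6 of the 7 smallest p-values, all of them lower in males, and whether a pair of spots carries the same gene was not tested. The matches were made over all 24 samples, the proboscis samples among them. A similar difference within a pair is therefore no separate support for a call.

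How far these calls rest on particular samples and spots differed between them. Without males 3 and 4, 0 spots were called in limma, and 606 had an unadjusted p under 0.05, against 723 (3.2%) in the full fit. With no difference at any spot, a share of 0.05 would be expected to pass, more than in either fit. Only males 1 and 2 remain in that fit, both Cy5 samples of the 4-array set. How far the smaller number of males accounts for the lost calls was not tested. The 3 spots kept their direction there, with differences of -0.72 (adjusted p = 0.0958) at spot 5784, -0.99 (adjusted p = 0.903) at spot 2572 and -0.88 (adjusted p = 0.903) at the third. With the lattice spots left out before normalisation, spot 5784 alone was called, 0.00452% of the 22104 spots left, with a difference of -0.93 ± 0.11 and an adjusted p of 0.0023. Spot 2572 then differed by -0.65 ± 0.15 (adjusted p = 0.923) and the third spot by -0.58 ± 0.11 (adjusted p = 0.351), and neither was called. At spot 2572 the levels without the lattice spots were 8.51, 8.08, 8.61 and 8.78 in females 1 to 4 and 7.70, 7.39, 7.89 and 7.94 in males 1 to 4, still with no overlap. Leaving out 1 sample at a time over the whole series kept spot 5784 called each time, and for 13 of the 24 samples, males 3 and 4 among them, it was then the only call.

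Spot 11956, in row 56 and column 131, was the highest-ranked spot with a higher level in males and the sixth by p. Its normalised log2 level was 6.30, 6.08, 6.32 and 6.52 in females 1 to 4 and 7.13, 6.96, 7.01 and 7.05 in males 1 to 4. The sexes did not overlap, and the males spanned a narrower range than the females. In net signal the females read 23.8, 132, 143 and 33.4 and the males 163, 184, 137 and 148, so that the groups overlapped before normalisation. The fitted difference was 0.86 ± 0.17, and its adjusted p of 0.208 in limma missed the threshold. It was 0.83 within Cy3 samples, 0.64 within Cy5 samples, 0.62 in the 8-array set, 0.84 in the 4-array set and 1.05 on the array that held both sexes. Without males 3 and 4 it was 0.94 (adjusted p = 1.00), and without the lattice spots 0.79 ± 0.13 (adjusted p = 0.132). With sample quality weights in the same model it was called, at 0.96 with an adjusted p of 0.0299, while spot 2572 (adjusted p = 0.46) and the third spot (adjusted p = 0.0664) were not. Its size was 1.30 with a normexp offset of 16. Spot 8200, in row 39 and column 30, ranked next among spots higher in males, with a difference of 0.41 ± 0.09 and an adjusted p of 0.453. Its females ran from 5.78 to 6.14 and its males from 6.12 to 6.52, so that they overlapped. The difference was 0.60 in the 8-array set, 0.16 in the 4-array set and -0.03 on the array that held both sexes. It was 0.84 with a normexp offset of 16 and 0.23 with no background correction.

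Spots at which the 4 males and 4 females did not overlap were fewer in the proboscis than in the antenna and more than in the first legs. There were 105 such spots with males higher (0.465%) and 191 with males lower (0.846%). In the antenna the same counts were 746 (3.3%) and 398 (1.76%), and in the first legs 60 (0.266%) and 49 (0.217%). These counts take no account of dye or array set, which were not spread alike over the sexes of each organ. In the antenna most females were Cy3 and most were in the 4-array set. Most antenna males were Cy5 and all were in the 8-array set. In the proboscis each sex was split evenly over the dyes and the sets. The proboscis difference was also measured less precisely in the model: its median SE was 0.0923, against 0.0695 in the antenna and 0.0597 in the first legs, and at each spot it was 1.33 times that of the antenna and 1.54 times that of the first legs.

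The sex difference of the proboscis was next read at the spots that the same model called higher in males in the other organs, 29 in the antenna (0.128%) and 34 in the first legs (0.151%). There were 17 spots on both lists, 58.6% of the antenna list and 50% of the first leg list. The antenna and first leg contrasts chose these spots, but all contrasts share the fitted dye, array set and RIL effects and each spot's estimated spread. The proboscis samples enter those estimates. Choosing small p-values favours spots with a small spread, which also lowers p in the proboscis. The shares by p below are therefore a description only. At all 17 the fitted proboscis difference was above 0, from 0.10 to 0.86 with a median of 0.26. Over all spots the median was 0.00 and 51.8% were above 0. None of the 17 was called in the proboscis in limma, and 11 had an unadjusted p under 0.05 with males higher, a share reached by 1.44% of all spots. In 2 of the 17 the male and female proboscis samples did not overlap, the spots 11956 and 13726. Over all spots the share with males higher and no overlap was 0.465%. Without males 3 and 4 all 17 differences remained above 0.

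At each of the 17 spots the difference was smallest in the proboscis, but the spots were chosen for their differences in the antenna and first legs, so the order of the organs is a description only. The antenna differences ran from 0.35 to 1.40 with a median of 0.70, and the first leg differences from 0.27 to 1.09 with a median of 0.58. Spot 11956 led the list, with 1.40 ± 0.12 in the antenna, 1.09 ± 0.11 in the first legs and 0.86 ± 0.17 in the proboscis. Spot 13726, in row 64 and column 181, followed with 1.12 ± 0.11, 0.90 ± 0.09 and 0.56 ± 0.14. Its proboscis levels were 6.15, 6.16, 6.18 and 6.21 in females 1 to 4 and 6.91, 6.65, 6.43 and 6.32 in males 1 to 4. The females lay close together, the males were spread, and the lowest male was just above the highest female. In net signal the females read 19.4, 138, 131 and 23.8 and the males 129, 119, 109 and 108, so that the groups overlapped before normalisation. The difference was 0.19 in the 8-array set and 0.61 in the 4-array set. Spots 11956 and 13726 were each other's most similar spot over the 24 samples, with r = 0.958.

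**Figure D3:**
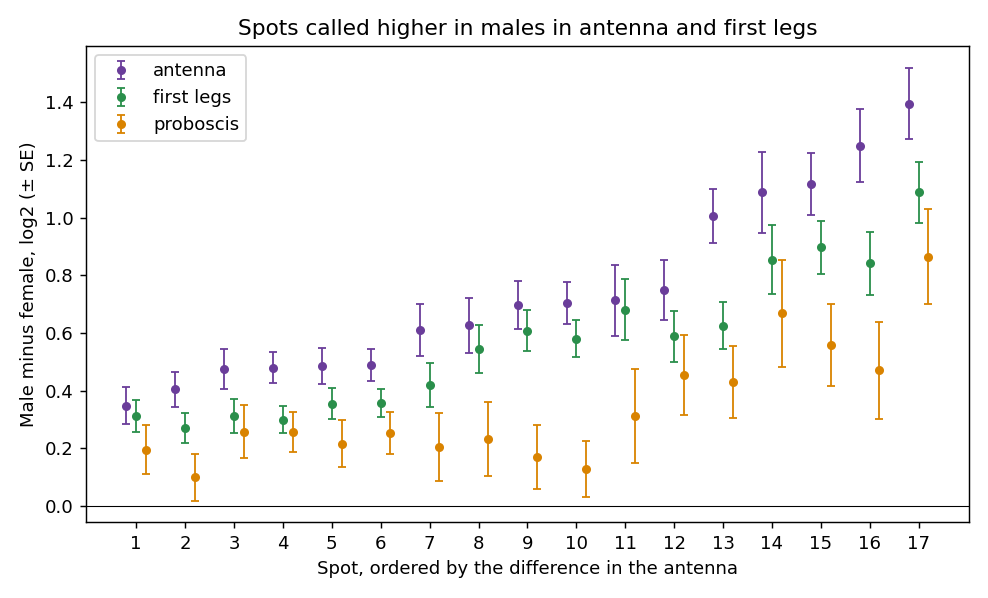
Fitted male minus female difference (vertical axis, log2, with SE bars) in antenna, first legs and proboscis at the 17 spots called higher in males in both antenna and first legs, ordered along the horizontal axis by the antenna difference. All 17 proboscis differences lie above 0, with a median of 0.26 against 0.70 in the antenna and 0.58 in the first legs.

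Whether the sexes differed otherwise in the proboscis than elsewhere was tested directly. Proboscis minus antenna sex differences gave 0 calls in limma, and 1053 spots (4.66%) had an unadjusted p under 0.05. The leading ones were spot 2572, at -1.04 ± 0.20, and spot 5784, at -0.78 ± 0.15, both with an adjusted p of 0.356. In the other direction they were spot 16659 (row 78, column 104), at 0.32 ± 0.07 with an adjusted p of 0.589, and spot 4322 (row 21, column 22), at 0.45 ± 0.11 with an adjusted p of 0.922. Without males 3 and 4 this contrast again gave 0 calls, and 1038 spots had an unadjusted p under 0.05.

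Proboscis minus first leg sex differences gave 4 calls (0.0177%), and 1050 spots (4.65%) had an unadjusted p under 0.05. Spot 5784 was one of them, at -1.01 ± 0.14 with an adjusted p of 0.00787, with a first leg difference of 0.04 ± 0.07. At the other 3 the sexes differed in the first legs and not detectably in the proboscis. Spot 18813 (row 88, column 108) differed by 1.67 ± 0.09 in the first legs and by 0.05 ± 0.13 in the proboscis, where the females read 6.81, 6.23, 6.15 and 6.67 and the males 6.27, 6.14, 6.47 and 6.42. Those levels interleave, while first leg males ran from 8.05 to 8.72 and first leg females from 6.26 to 6.81. The contrast was -1.62 ± 0.16 with an adjusted p of 0.000174. Spot 1777 (row 9, column 57), its most similar spot with r = 0.994, had 1.67 ± 0.08 in the first legs, 0.18 ± 0.13 in the proboscis and a contrast of -1.495 ± 0.15 with an adjusted p of 0.000174.

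Spot 17374 (row 81, column 174) ran the other way, lower in male first legs by -1.76 ± 0.14 and at 0.05 ± 0.21 in the proboscis. Its proboscis females read 6.29, 6.62, 6.56 and 6.33 and its males 6.64, 6.54, 6.47 and 6.78, again overlapping, and the contrast was 1.82 ± 0.26 with an adjusted p of 0.00787. Spot 321 (row 2, column 106), its most similar spot with r = 0.993, had 0.01 ± 0.25 in the proboscis and a contrast of 1.79 ± 0.30, whose adjusted p of 0.0609 missed the threshold. Without males 3 and 4, spots 18813 and 1777 stayed called (adjusted p = 0.0163 for each), while spots 17374 (adjusted p = 0.387) and 5784 did not. The 4 calls also became 2 without first leg female 4, proboscis female 1 or proboscis male 4.

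The fitted proboscis difference joins 2 estimates that run with opposite dyes. Any difference between the dye effects of the sets enters it, and the antenna and first leg samples are needed to estimate that. In the 8-array set the male minus female difference was beyond 1 at 484 spots and under -1 at 348, with values from -1.75 to 5.26. In the 4-array set it passed 1 in either direction at 77 spots, with values from -1.94 to 1.49. Across spots the estimates correlated at -0.576 with the lattice spots and at -0.390 without them, and the spots share their samples, dyes and depth. At the 471 lattice spots the difference ran from 2.20 to 5.26 in the 8-array set and from -1.45 to 0.08 in the 4-array set, and the model with a dye effect for each set gave -0.44 to 0.61, with a median of 0.12 and 0 called. The called spots had the same sign in both sets. A dye effect running opposite ways in the sets would also give equal signs, so these cannot tell it apart from sex. Spot 5784 had -1.38 in the 8-array set and -0.43 in the 4-array set, spot 2572 had -1.31 and -0.98, and the third spot had -1.45 and -0.71.

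**Figure D4:**
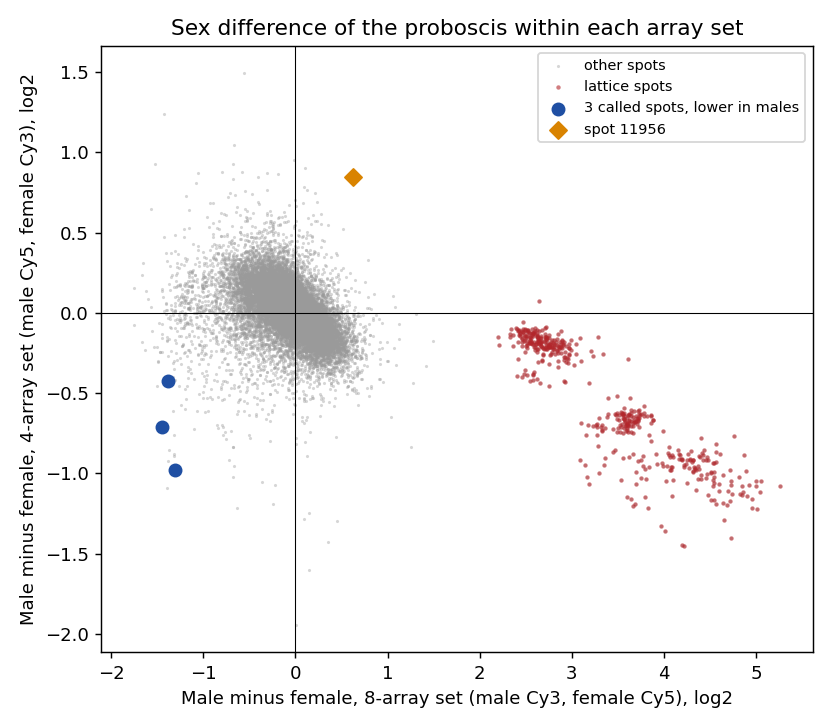
Male minus female difference of normalised log2 signal at each of the 22575 spots, in the 8-array set (horizontal axis, 2 males against 2 females) and the 4-array set (vertical axis, 2 against 2). The lattice spots (red) lie at 2.20 to 5.26 on the horizontal axis and between -1.45 and 0.08 on the vertical axis, the 3 called spots (blue) are negative on both, and spot 11956 (orange) is positive on both.

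The number of called spots depended on how the dye and the array set were modelled. The fits with 1 dye effect, here and below, hold no array set effect. With 1 dye effect for all arrays the same limma test called 1219 spots (5.4%). Of these, 702 were higher (3.11%) and 517 lower in males, and the 3 called above were among them. How far the dye or the array set accounts for the change was not tested. All 471 lattice spots were among the 702, with differences of 1.499 to 2.76, which leaves 231 other spots higher. At 793 of the 1219 spots (65.1%) the array sets gave differences of opposite sign, against 73.4% of all spots. With the lattice spots left out before normalisation and 1 dye effect, 103 of 22104 spots were called (0.466%), 58 higher and 45 lower in males. The size of the dye effect differed between the array sets, at an adjusted p under 0.05, at 1064 of 22575 spots (4.71%) with the lattice spots and at 22 of 22104 (0.0995%) without them. The lattice spots were themselves chosen on that dye effect.

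Of the 103 spots, 101 were also among the 1219. Their differences ran from 0.14 to 1.04 for those higher in males and from -1.002 to -0.21 for those lower, and 17 exceeded 0.5 in size. The values of the sexes did not overlap at 24 of the 103, and at 0.973% of all spots left. The array sets gave differences of the same sign at 55 of the 103 (53.4%), and at 26.7% of all spots left. At the other calls the sign changed between the sets. The calls were made on the same values as these counts. Spot 5784 had the smallest adjusted p, with -0.83 ± 0.07 (adjusted p = 2.26e-06). Spot 11956 came next, higher in males by 0.78 ± 0.08 (adjusted p = 8.62e-05), beside the third called spot at -0.76 ± 0.08 (adjusted p = 8.62e-05). Spot 2572 was called at -0.72 ± 0.10 (adjusted p = 0.00159) and spot 8200 at 0.27 ± 0.06 (adjusted p = 0.0343). At 2 of the 17 spots on both male-higher lists the proboscis difference was called in this setting, and the median over the 17 was 0.20. This setting was chosen after the data were seen.

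**Figure D5:**
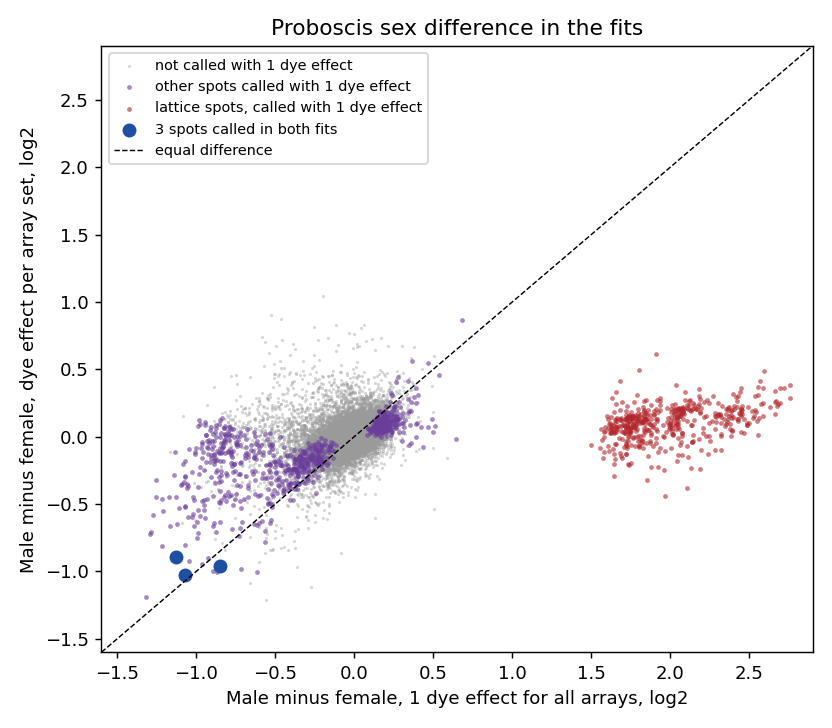
Fitted male minus female difference in the proboscis at each spot with 1 dye effect for all arrays (horizontal axis, log2) and with a dye effect for each array set (vertical axis, log2), all spots kept. The 471 lattice spots (red) lie at 1.499 to 2.76 on the horizontal axis and at -0.44 to 0.61 on the vertical axis, other spots called with 1 dye effect are purple, and the 3 spots called in both (blue) lie near the dashed line of equal difference.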

How the data were processed

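Groups follow the tissue and sex given in the titles of the 24 samples, with dye from the label field and RIL number from the description. Messenger RNA was reverse transcribed and amplified with T7 polymerase before labelling, per the labels. Spot and background brightness are linear intensity values of 1 channel, not normalised, per the file headers. Each spot also has a quality score, per the file headers, used to find shared arrays. The deposited value table holds the natural log of signal minus background, as its values show when set against the scanner files, and served as an alternative.

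Background was corrected with normexp (offset 50), values were taken to log2 and quantile normalised over 24 samples, and limma (lmFit, duplicateCorrelation with an array correlation of 0.552, eBayes with trend, 14 residual degrees of freedom) tested every spot, two-sided, with Benjamini-Hochberg adjustment at 0.05. Spots were not filtered or averaged. Alternatives included other normalisations and background steps, array blocks and sample quality weights. Named spots are the 2 smallest p-values in each direction of each contrast, and for spots shared by antenna and first legs the 2 with the smallest larger p. Gene lists were not usable, since spots are not paired with genes. The comparison, its spots and the settings were chosen with earlier results of these data known, and leaving out lattice spots or males 3 and 4 was chosen after the data were seen. Same-numbered male and female samples deviated together with correlations of 0.06, -0.21, 0.15 and 0.19, so no pairing by replicate number was seen. In the proboscis same-numbered samples also differ in dye, array set or RIL, so these values cannot show that pairing is absent. Scripts were tested on simulated data. Fits used limma 3.58.1 and statmod 1.5.0 in R 4.3.3. Figures were drawn with matplotlib 3.10.9 and pandas 2.3.3 under Python 3.11.15.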

Additional observations from a re-analysis of the deposited data

Results flagged for a closer look

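At 4 spots the proboscis sex difference differed from that of the first legs by the limma contrast of both. The contrast was -1.62 at spot 18813 and -1.495 at spot 1777, where the first leg males were higher, -1.01 at spot 5784, where the female proboscis was higher, and 1.82 at spot 17374, where the first leg females were higher. Among 24 groups of 4 proboscis samples examined, 1 held a sample apart from the others relative to their narrow spread. At spot 16659 female replicate 4 had a normalised log2 level of 6.004 against 5.93 to 5.94 in the other females. The gap was small and the spot dim, with a net signal of 19.1 beside a background of 63.7 in that sample. Chance marks about 1 in 20 such groups.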

How the results depend on the processing

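The count of 3 called spots in the proboscis became 1219 with 1 dye effect for all arrays. It was 103 with 1 dye effect and no lattice spots. Both of these fits also lack an array set effect. The count was 1 without the lattice spots, with the deposited table (whose 166 missing values that fit drops), with a normexp offset of 16, or with loess within arrays. It was 0 when samples were scaled to 1 median (341 at an unadjusted p under 0.05), with cyclic loess (510), with the array as a fixed block (533), in the 4-array set alone (1528), in the proboscis alone (1114), without males 3 and 4 (606) and without all Cy3 samples of the 8-array set (921). In the main fit 723 spots (3.2%) had an unadjusted p under 0.05. With no difference at any spot, a share of 0.05 would be expected. With a replicate block the contrasts with antenna and first legs kept 0 and 4 calls. Whether samples of the same number were paired cannot be told, as set out above. The count in the proboscis was 1 with that block. Leaving out 1 sample at a time gave 1 to 4, and 1 without any of 13 samples: proboscis female 4, males 3 and 4, antenna female 1, males 2 and 3, and in the first legs all 4 males and females 1, 2 and 4. The contrast with the antenna gave 11 calls with 1 dye effect, 9 with 1 dye effect and no lattice spots, and 0 to 2 without 1 sample, 2 without antenna female 4. The contrast with the first legs gave 599 and 28 in those dye settings, 1 when scaled to 1 median, 0 with cyclic loess, with a fixed block or without the Cy3 samples of the 8-array set, 2 with no array block or without males 3 and 4, and 2 to 6 without 1 sample, 2 without first leg female 4, proboscis female 1 or proboscis male 4. The causes were not tested. The proboscis differences of the named leading spots kept their sign in every setting, as did the first leg contrasts of spots 18813, 1777, 17374 and 321. The proboscis difference of spot 18813 (0.05) was -0.12 with 1 dye effect and -0.12 without lattice spots, and that of spot 1777 (0.18) was -0.04 with 1 dye effect. The named contrasts with the antenna were not recomputed singly. The 17 shared spots had 15 to 17 differences above 0 in every setting. Low Cy5 signal over background limits small differences.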
